A study of Mus musculus with 12 samples.

Results

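The neuronal immediate-early genes followed here are Fos, Fosb, Junb, Egr1, Egr2, Nr4a1, Npas4, Ier2, Arc and Dusp1. They were measured in mouse hypothalamus by 14 of the 56605 probes of the deposited normalized table, taken as every probe annotated with 1 of the 10 gene symbols. The genes were chosen with their signals on these same arrays in view, so their differences between groups are given as a description, with standard errors and with no p for a single gene. Counts of the 10 genes past a threshold are printed beside the share of all tested probes past it, and nothing is read from them. Each value is a quantile-normalized log2 signal from a single-color Agilent array, and the number of arrays limits the precision.

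The study asked how loss of Asmt, the enzyme of the last step of melatonin synthesis, and swimming exercise change gene expression in the hypothalamus. All mice were males on a C57BL/6 background, a strain in which Asmt activity is known to be largely deficient, so the wild-type littermates are a limited control for the enzyme. The sedentary wild-type (WT) and wild-type exercise (exercised WT) groups did not carry the deletion. The sedentary knockout (KO) and knockout exercise (KE) groups were homozygous for a 20 bp deletion made with Cas9 in a founder, which was backcrossed for 3 generations. Mice of every group were 6 to 7 weeks old when training began. Exercised WT and KE mice trained by daily swimming in warm water for several weeks, whereas WT and KO mice had no swimming training. The age at tissue collection was therefore higher than 6 to 7 weeks. The paper also reports behavioural tests of every group, among them a forced swim test. Each group held 3 arrays, and replicate numbers are those of the sample titles. The interval between the last swim and collection of the tissue is not given in the sources used here.

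Immediate-early genes are transcribed within minutes of calcium entry, synaptic input or growth factor signalling, without new protein synthesis, through factors such as CREB and serum response factor that are already bound or present. Many of them encode transcription factors that switch on a second wave of genes, and their transcripts are short-lived. In the brain they are widely used as a record of which neurons were recently active, also after handling, stress and exercise. A difference in bulk tissue cannot separate fewer responding cells from less RNA per cell.

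RefSeq promoter sequences (GRCm38.p6) were available for 7 of the 10 genes, namely Fos, Fosb, Junb, Egr2, Nr4a1, Npas4 and Dusp1. The cAMP response element (CRE), the site to which CREB binds, has the full form TGACGTCA and the half-site TGACG, and the full form contains the half-site. Read on both strands over the 250 bases before the start, the half-site occurred in 9 of the 11 promoter windows of these genes and in at least 1 window of each of the 7 genes, against 17.8% of all 32851 promoters in the table. The full site occurred in Dusp1 only, against 1.55% of all promoters. Egr2 has 5 of the 11 windows, and some of them overlap, so that its half-sites in 3 windows were at 2 genome positions. A CArG box, the site of serum response factor, was held by 1 gene, Egr2, in 4 of its windows at 2 genome positions, against 1.47% of all promoters. The TATAAA form of the TATA box lay in Fos, 33 bases before the start, against 12.4% of all promoters, and the AP-1 site TGANTCA lay in 0 of the 11, against 6.75%. The promoters of 3 genes whose arrays moved together (Fos, Junb and Nr4a1), of 1 that did not follow them (Npas4) and of the gene with the full site (Dusp1) are printed 5′ to 3′, with CRE half-sites on either strand, the full site and TATAAA in capitals.
Fos, chr12:85473640-85473889, plus strand: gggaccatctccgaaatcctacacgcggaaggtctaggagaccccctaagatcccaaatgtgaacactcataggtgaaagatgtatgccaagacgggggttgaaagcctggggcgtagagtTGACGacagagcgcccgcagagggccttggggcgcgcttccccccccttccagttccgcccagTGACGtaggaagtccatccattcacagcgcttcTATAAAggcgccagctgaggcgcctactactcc
Junb, chr8:84978749-84978998, minus strand: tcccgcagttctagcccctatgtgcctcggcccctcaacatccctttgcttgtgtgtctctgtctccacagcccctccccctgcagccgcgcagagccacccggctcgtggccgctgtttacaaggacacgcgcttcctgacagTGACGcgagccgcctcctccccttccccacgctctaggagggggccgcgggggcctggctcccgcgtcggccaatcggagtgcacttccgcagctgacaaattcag
Nr4a1, chr15:101266596-101266845, plus strand: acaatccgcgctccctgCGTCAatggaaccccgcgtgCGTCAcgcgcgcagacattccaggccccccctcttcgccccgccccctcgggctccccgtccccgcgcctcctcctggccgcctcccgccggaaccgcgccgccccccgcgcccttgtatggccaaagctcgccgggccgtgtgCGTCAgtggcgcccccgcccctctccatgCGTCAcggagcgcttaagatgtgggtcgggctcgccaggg
Npas4, chr19:4989972-4990221, minus strand: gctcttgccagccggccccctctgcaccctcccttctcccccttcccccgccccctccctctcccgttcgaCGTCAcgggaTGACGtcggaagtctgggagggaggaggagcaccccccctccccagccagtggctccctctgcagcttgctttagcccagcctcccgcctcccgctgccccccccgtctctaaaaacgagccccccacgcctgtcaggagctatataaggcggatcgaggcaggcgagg
Dusp1, chr17:26508473-26508722, minus strand: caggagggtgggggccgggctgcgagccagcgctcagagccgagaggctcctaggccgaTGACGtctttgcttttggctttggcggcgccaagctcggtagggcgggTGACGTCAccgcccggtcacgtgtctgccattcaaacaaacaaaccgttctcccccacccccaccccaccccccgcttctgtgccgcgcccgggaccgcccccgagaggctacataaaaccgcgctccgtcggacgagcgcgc
In these windows Fos held half-sites at 129 and 66 bases before the start, Junb 1 at 106, Nr4a1 4 on the opposite strand, and Npas4 1 on each strand. Such matches describe letters in a window, not occupied sites.

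Before the values are read, the layout of the arrays matters. WT replicates 1 to 3 and KO replicates 1 and 2 were on slide 1, and KO replicate 3 with all exercised WT and KE arrays was on slide 2. In a principal component analysis of the 35230 tested probes, 47.3% of the variance fell on a first axis that separated the slides, with scores from -47.5 to -29.5 on slide 1 and from 19.3 to 40.0 on slide 2. WT and exercised WT therefore lay on different slides, and swimming and slide cannot be told apart in exercised WT versus WT except through the KO arrays. KE versus exercised WT was made wholly within slide 2. The share of spots well above background ran from 61.6% to 67.9% over the arrays, and 0 spots were saturated. All 17 hypothalamic marker genes, among them Oxt, Avp, Hcrt and Pmch, passed the detection filter. Their summed signal, in which Oxt was the brightest probe, ran from 18.44 to 18.69 on the log2 scale, but single markers varied more between arrays, with Crh from 9.28 to 11.26, Sim1 from 4.10 to 7.23 and Pomc from 12.64 to 13.89. Of 6 pituitary markers only 2 (Tshb and Lhb) passed the detection filter, so the growth hormone and prolactin transcripts that define that gland were not among the tested probes.

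Each of the 10 genes had 1 probe that was well above background on all 12 arrays, and these probes are used below. Of the other 4, a second Junb probe (A_55_P2011106) was above background on 7 arrays, with signals from 3.64 to 5.21, and was lowest in WT replicate 2 and highest in WT replicate 1, as the brighter probe was. A second Fosb probe, another Junb probe and a second Ier2 probe were above background on 0 of 12 arrays and carry no level. Of the 14 probes, 11 passed the filter on low signals.

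The AP-1 subunits were described first. Fos (A_55_P2910184, mm9 chr12:86818118-86818177) encodes the classical activity-induced partner of the Jun proteins. Its log2 signal was 10.68, 9.05 and 8.88 in WT replicates 1 to 3, 10.63, 9.41 and 9.59 in KO, 10.28, 9.55 and 9.16 in the exercised WT arrays, and 9.23, 8.88 and 9.21 in KE. Replicate 1 of WT, KO and exercised WT stood well above every other array, and the KE arrays lay together with WT replicates 2 and 3 and exercised WT replicate 3 at the low end. The range over the 12 arrays was 1.80, and the SD of 0.64 lay at percentile 96.8 of the SDs of all tested probes. The SD within WT was 0.99 and within KE 0.20, so the mean of WT, 9.54, rested on 1 high array.

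Fosb (A_55_P2113051, mm9 chr7:19888168-19888227) encodes a Fos relative whose truncated form accumulates on repeated stimulation. Its signal was 7.47, 7.33 and 7.10 in WT, 7.43, 7.42 and 7.36 in KO, 8.05, 7.63 and 7.06 in the exercised WT arrays, and 7.11, 6.80 and 6.63 in KE. Exercised WT replicate 1 was the highest array, the KO arrays were almost equal (SD 0.04), and all 3 KE arrays lay below all 3 KO arrays. Junb (A_51_P159194, mm9 chr8:87500843-87500902) encodes a Jun protein that dimerizes with Fos. It read 11.72, 10.92 and 11.18 in WT, 11.54, 11.38 and 11.27 in KO, 11.38, 11.17 and 11.21 in the exercised WT arrays, and 11.14, 11.11 and 11.23 in KE. Replicate 1 was again the highest array of WT, KO and exercised WT, in a narrower range of 0.81.

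Egr1 and Egr2 encode zinc finger factors induced by calcium and MAP kinase signalling. Egr1 (A_51_P367866, mm9 chr18:35024395-35024454) gave 11.56, 10.65 and 10.60 in WT, 11.61, 11.24 and 10.94 in KO, 11.68, 11.11 and 10.75 in the exercised WT arrays, and 10.53, 10.43 and 10.54 in KE. All 3 KE arrays were below each of the other 9 arrays. The group means were 10.94 ± 0.54 in WT, 11.26 ± 0.33 in KO, 11.18 ± 0.47 in the exercised WT arrays and 10.50 ± 0.06 in KE (SD, n = 3). Egr2 (A_51_P173043, mm9 chr10:67004758-67004817) had the widest range, 2.07, with 7.93, 5.86 and 6.59 in WT, 7.52, 7.65 and 6.18 in KO, 6.84, 6.43 and 6.52 in the exercised WT arrays, and 6.07, 6.27 and 5.90 in KE. WT replicate 1 and KO replicates 1 and 2, all on slide 1, stood apart above the rest, and WT replicate 2 was as low as the KE arrays.

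Nr4a1 and Npas4 are further induced transcription factors, the former an orphan nuclear receptor and the latter a factor restricted to neurons and responsive to calcium. The Nr4a1 probe (A_51_P239654, mm9 chr15:101105071-101105130) read 11.84, 10.91 and 11.28 in WT, 11.67, 11.33 and 10.97 in KO, 11.32, 10.95 and 11.17 in the exercised WT arrays, and 11.12, 11.09 and 11.09 in KE. WT replicate 1 and KO replicate 1 were highest, and the KE arrays differed by an SD of only 0.02, against 0.47 in WT. Npas4 (A_55_P1975215, mm9 chr19:4984356-4984415) went another way, with 8.83, 8.35 and 8.60 in WT, 8.64, 8.38 and 8.30 in KO, 8.12, 8.47 and 8.50 in the exercised WT arrays, and 8.44, 8.85 and 8.65 in KE. Its lowest array was exercised WT replicate 1, which was the highest for Fosb and Egr1, and its highest was KE replicate 2.

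The remaining 3 genes varied less. Ier2 (A_51_P481325, mm9 chr8:87185211-87185245), which encodes a small nuclear protein, had signals from 7.25 in KE replicate 1 to 7.78 in WT replicate 1. Arc (A_51_P503494, mm9 chr15:74499597-74499656), whose product regulates AMPA receptor trafficking at synapses, ran from 10.16 in KE replicate 1 to 10.55 in KO replicate 1. Dusp1 (A_55_P2908530, mm9 chr17:26642624-26642683), a phosphatase that shuts off MAP kinases, ran from 10.58 in KE replicate 2 to 11.00 in KO replicate 1. All 3 KE arrays of Dusp1, at 10.60, 10.58 and 10.62, lay below all 3 exercised WT arrays, at 10.74, 10.76 and 10.88. The SDs of Arc and Dusp1 over 12 arrays, 0.14 and 0.13, were at percentiles 41.3 and 39.8 of the SDs of all tested probes.

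**Figure D1:**
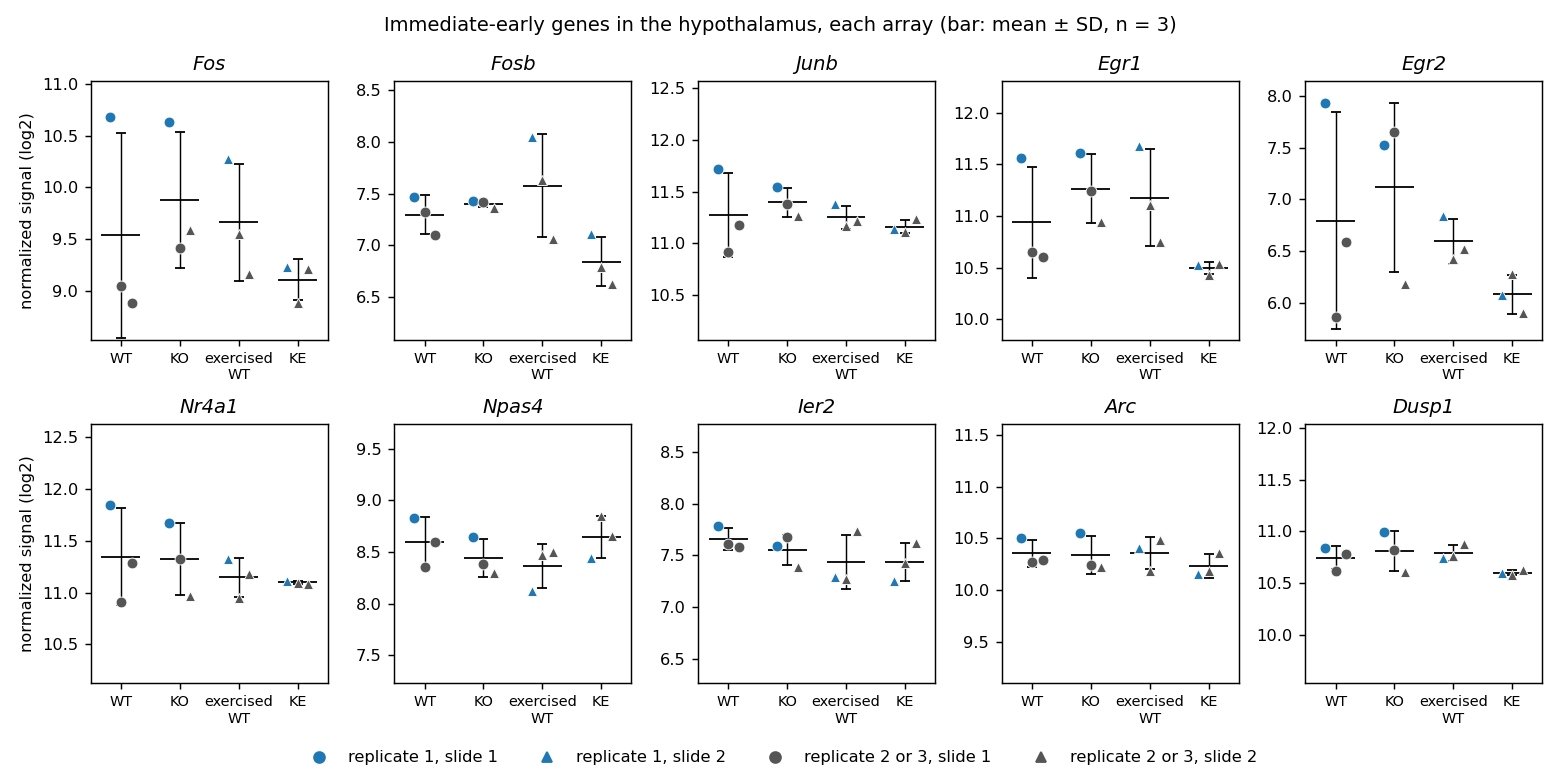
Normalized log2 signal (vertical axis) of each gene on every array, by group (horizontal axis), with circles for slide 1, triangles for slide 2 and blue for replicate 1. Lines give the group mean and SD of 3 arrays. For Fos and Egr1, replicate 1 is the highest array of WT, KO and exercised WT. The KE arrays lie below all others for Egr1, whereas for Fos WT replicates 2 and 3 and exercised WT replicate 3 lie among them, at 8.88 to 9.16.

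KE had the lowest of the 4 group means for 9 of the 10 genes, though for Ier2 only by a difference too small to print, and for 36.2% of all tested probes. The highest mean was that of KO for 5 genes, WT and exercised WT for 2 each and KE for Npas4. Of all tested probes, 20.5%, 39.2%, 18.9% and 21.5% had their highest mean in these groups, in the same order. Single arrays also stood out. WT replicate 1 was the highest array for 5 of the 10 genes and among the 3 highest for all 10, and KO replicate 1 was among the 3 highest for 7. WT replicates 2 and 3 were among the 3 highest for 0 genes, and WT replicate 2 was the lowest array for 3. KE replicates 1 and 2 were each among the 3 lowest for 6. Averaged over the genes after each gene's mean was taken off, the signal was 0.51, -0.25 and -0.11 in WT, 0.42, 0.15 and -0.12 in KO, 0.21, -0.05 and -0.06 in the exercised WT arrays, and -0.24, -0.24 and -0.22 in KE. The high arrays lay on both slides, WT and KO replicate 1 on slide 1 and exercised WT replicate 1 on slide 2.

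Across the 12 arrays, which share 2 slides and 4 groups, the correlation of each gene with the mean profile of the other 9 was 0.92 for Junb, 0.88 for Egr1 and for Nr4a1, 0.87 for Egr2, 0.85 for Fos, 0.76 for Dusp1 and 0.69 for Arc. It was lower for Fosb (0.47) and Ier2 (0.30), and 0.05 for Npas4. Among pairs, Fos and Egr1 had a coefficient of 0.92, Junb and Nr4a1 0.91, and Fosb and Npas4 -0.59. After the mean of each group on each slide was taken off, the coefficient with the other 9 was 0.96 for Junb, 0.94 for Nr4a1, 0.87 for Fos and for Egr1 and 0.82 for Egr2. It was 0.60 for Arc, 0.54 for Dusp1, 0.34 for Npas4, 0.31 for Fosb and 0.05 for Ier2.

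**Figure D2:**
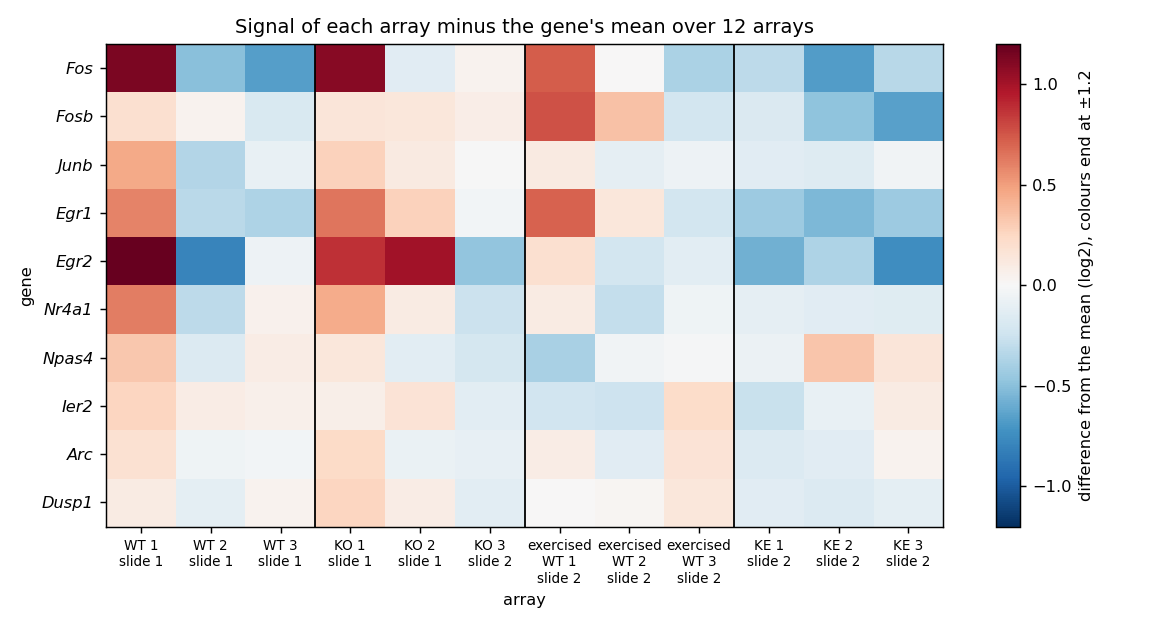
Log2 signal of each gene (rows) on each array (columns) minus the gene's mean over 12 arrays, with red above and blue below the mean and lines between groups. The columns of WT replicate 1 and KO replicate 1 are red in all rows, and the KE columns are mostly blue or pale apart from Npas4.

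The spread within groups also differed. KE had the lowest SD of the 4 groups for 7 of the 10 genes, and for 37.4% of all tested probes. The median SD of the genes was 0.33 in WT, 0.19 in KO, 0.21 in the exercised WT arrays and 0.15 in KE, beside medians over all tested probes of 0.10, 0.15, 0.10 and 0.08.

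Knockout and wild-type mice at rest were compared to see what loss of Asmt does without exercise. KO exceeded WT for 6 of the 10 genes, by 0.34 ± 0.49 for Fos, 0.33 ± 0.29 for Egr1 and 0.32 ± 0.50 for Egr2 (log2 difference ± SE from the limma fit, n = 3 a group), and the median difference was 0.08, beside -0.01 over all tested probes. Every gene overlapped between KO and WT, whereas 8.58% of tested probes did not. None of the 10 met the study's screening criterion, a change of 2-fold or more in either direction with an unadjusted p from limma no higher than 0.05, which 0.224% of tested probes met. None had an unadjusted p under 0.05 (5.48% of tested probes) or an adjusted p under 0.05 (0% of tested probes). Within slide 1, where KO replicates 1 and 2 were set against the WT arrays, the median difference was 0.16. Leaving out 1 array moved Fos to between -0.03 (without KO replicate 1) and 0.91 (without WT replicate 1), Egr1 to between 0.15 and 0.64 (the same arrays) and Egr2 to between -0.14 (without WT replicate 2) and 0.89 (without WT replicate 1). Leaving out WT replicate 1 raised the median to 0.21, and leaving out WT replicate 2 or KO replicate 1 turned it to -0.06 or -0.03, so this comparison had no settled direction for the group.

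Swimming in wild-type mice was read from exercised WT versus WT. The genes split evenly, with 5 higher and 5 lower in the exercised WT arrays and a median of -0.01, beside -0.04 over all tested probes. Fosb differed by 0.28 ± 0.22, Egr1 by 0.24 ± 0.29, Fos by 0.13 ± 0.49 and Egr2 by -0.20 ± 0.50. Leaving out 1 array at a time moved these to between 0.04 and 0.54 for Fosb (without exercised WT replicates 1 and 3), -0.01 and 0.55 for Egr1 (without exercised WT replicate 1 and WT replicate 1), -0.20 and 0.70 for Fos (without WT replicates 3 and 1) and -0.66 and 0.37 for Egr2 (without WT replicates 2 and 1), so of these 4 only Fosb kept its sign. Every gene overlapped between the groups, whereas 37.6% of tested probes did not, in a comparison across slides. None met the screening criterion (2.19% of tested probes), an unadjusted p under 0.05 (26% of tested probes) or an adjusted p under 0.05 (0%). When slide was added as a block, estimated through KO alone, 9 of the 10 differences were positive and the median was 0.34, with Egr2 at 1.21 ± 0.76, Egr1 at 0.72 ± 0.52, Fos at 0.56 ± 0.91 and Dusp1 at 0.34 ± 0.13, while the median of all tested probes was 0.01. These blocked values rest on how far KO replicate 3 stood from KO replicates 1 and 2.

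In knockout mice, KE was lower than KO for 9 of the 10 genes, with Npas4 the exception at 0.20 ± 0.16. The log2 difference was -1.04 ± 0.50 for Egr2, -0.77 ± 0.49 for Fos, -0.76 ± 0.29 for Egr1, -0.56 ± 0.22 for Fosb, -0.24 ± 0.17 for Junb, -0.22 ± 0.23 for Nr4a1 and -0.21 ± 0.10 for Dusp1, which for Egr2 is a 2.05-fold and for Egr1 a 1.70-fold lower signal in KE. The median over the genes was -0.23, beside -0.04 over all tested probes, of which 58.5% were lower. Every KE array lay below every KO array for 4 genes, Fos, Fosb, Junb and Egr1, an arrangement that 15.4% of tested probes had. None met the screening criterion (1.21% of tested probes), 2 had an unadjusted p under 0.05 (21.1% of tested probes), and none had an adjusted p under 0.05 (0.0199% of tested probes). Without KO replicate 3, which sets all arrays of the comparison on opposite slides, 2 of the 10 had a limma adjusted p under 0.05, as 8577 of the 35230 probes did.

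KO replicates 1 and 2, which were on the other slide, set much of the median KE versus KO difference and much of that for Egr2, Nr4a1 and Dusp1. For Fosb, at -0.56 over all KO arrays, they changed little. Within slide 2, KE against the single array KO replicate 3, the differences were -0.52 for Fosb, -0.49 for Fos, -0.44 for Egr1, -0.11 for Junb and -0.10 for Egr2, Nr4a1 turned to 0.13, and the median was -0.05 with 6 of 10 genes lower. Dusp1, at -0.01, and Arc, at 0.01, were close to 0. Leaving out KO replicate 1 alone changed the difference to -0.59 for Egr1, -0.40 for Fos and -0.16 for Junb. It also changed Dusp1 to -0.12, Nr4a1 to -0.05 and Arc to -0.0003. Leaving out KE replicate 2 changed Npas4 to 0.10. The part of the slide in the KE versus KO differences was not tested further.

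Between genotypes after swimming, all arrays lay on slide 2. KE was lower than exercised WT for 9 of the 10 genes, although for Ier2 the means were equal to 2 decimals. Fosb differed by -0.73 ± 0.22, Egr1 by -0.68 ± 0.29, Fos by -0.56 ± 0.49, Egr2 by -0.52 ± 0.50 and Dusp1 by -0.19 ± 0.10, and Npas4 was higher in KE by 0.28 ± 0.16. The median was -0.16, beside -0.01 over all tested probes, of which 53.1% were lower. Every KE array lay below every exercised WT array for 3 genes, Egr1, Egr2 and Dusp1, and for 11.2% of tested probes. None met the screening criterion (0.253% of tested probes), 2 had an unadjusted p under 0.05 (6.66% of tested probes), and none had an adjusted p under 0.05 (0% of tested probes). Leaving out exercised WT replicate 1, the highest exercised WT array for Egr1 and Fos and the lowest for Npas4, gave -0.43 for Egr1, -0.25 for Fos and 0.16 for Npas4.

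The interaction, the KE minus KO difference less the exercised WT minus WT difference, was negative for 8 of the 10 genes with a median of -0.24, beside -0.01 over all tested probes. Egr1 had -1.01 ± 0.41, Fos -0.90 ± 0.69, Fosb -0.84 ± 0.31 and Egr2 -0.84 ± 0.71, and Npas4 was positive at 0.43 ± 0.23. The screening criterion was met by 1 of the 10 and by 0.593% of tested probes, 2 had an unadjusted p under 0.05 (7.75% of tested probes), and none had an adjusted p under 0.05 (0% of tested probes). Without exercised WT replicate 1 the Egr1 value was -0.76. Leaving out 1 array moved Fos to between -1.47 (without WT replicate 1) and -0.52 (without KO replicate 1). Egr2 moved to between -1.41 and -0.37 (without WT replicates 1 and 2). Without WT replicate 2, Junb was at -0.04 and Nr4a1 turned to 0.19. When slide was added as a block, the median was -0.32, with 8 of 10 again negative. KE versus KO, KE versus exercised WT and the interaction share the KE arrays, and KO versus WT, KE versus KO and the interaction share the KO arrays, so these values are not separate lines of evidence.

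**Figure D3:**
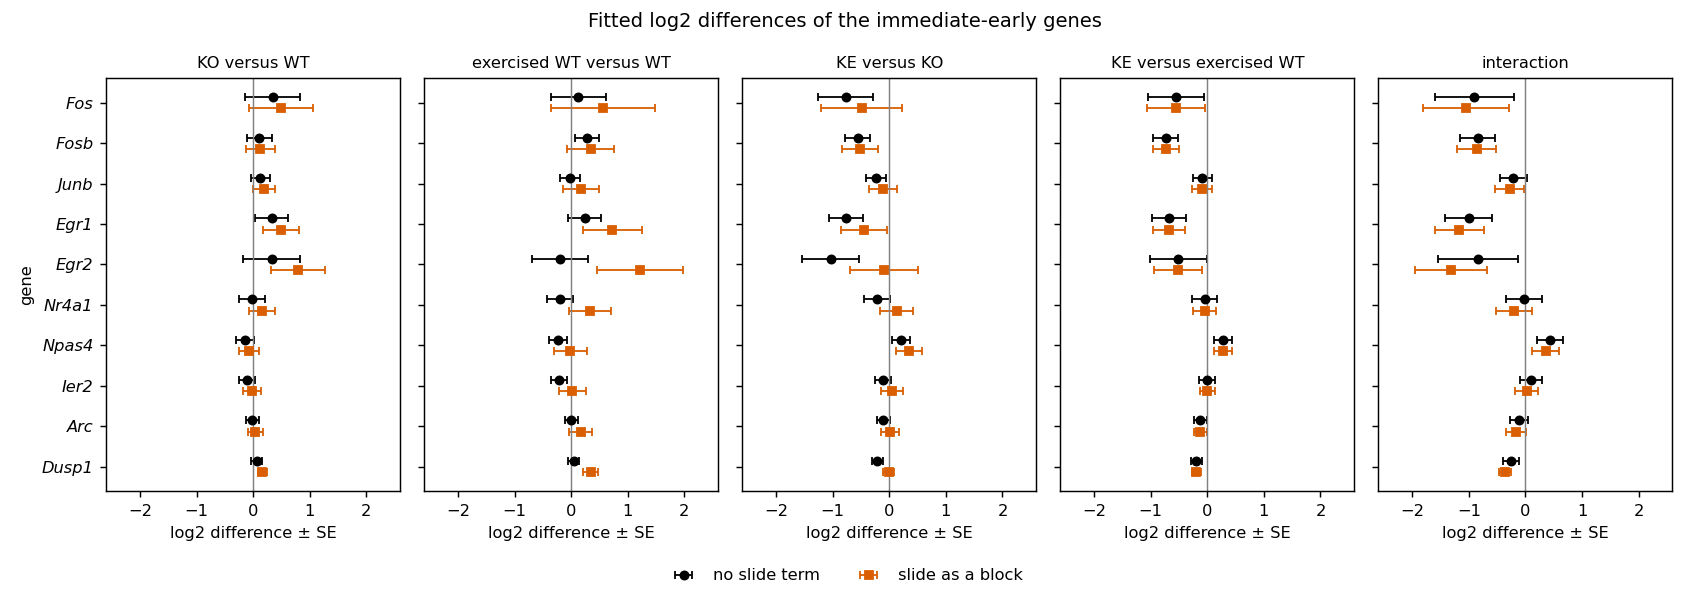
Fitted log2 difference and SE (horizontal axis) of each gene (vertical axis) in 5 comparisons, without a slide term (black circles) and with the slide as a block (orange squares). In KE versus exercised WT both fits give the same differences, while in exercised WT versus WT Egr2 moves from -0.20 to 1.21.

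Related genes of the same response were taken from 6 lists of 102 genes, of which 97 had a tested probe, and were tested in the same limma fit. No related gene had a Benjamini-Hochberg adjusted p under 0.05 from limma in any of the 5 comparisons with all arrays in the fit. The methods' test on the same values left 1, Spry4 in exercised WT versus WT, and a limma fit on those 2 groups alone left 2, Klf2 and Spry4. Without KO replicate 3, the only sedentary array on slide 2, 8 related genes passed for exercised WT versus WT and 21 for KE versus KO, beside 6353 and 8577 of the 35230 probes. The number with an unadjusted p under 0.05 was 6 in KO versus WT, 19 for exercised WT versus WT and 26 for KE versus KO. It was 14 in KE versus exercised WT and 16 in the interaction, to be read beside the shares of all tested probes above. Leaving out 1 array gave 2 to 14, 9 to 21, 15 to 41, 8 to 18 and 11 to 21 in that order. The slide block gave 14 in KO versus WT and 9 for exercised WT versus WT, beside 1931 and 2178 of the 35230 tested probes. In KE versus KO 19 of the 26 were lower, in KE versus exercised WT 13 of 14, and in the interaction 15 of 16. Of all tested probes with such a p, 61.9%, 67.1% and 53.2% were lower in the same order. Probes that met the screening criterion in KE versus KO ran the other way, with 388 higher and 38 lower, and with the slide as a block 73 were higher and 96 lower. For KE versus KO the number of 26 went down to 7 with the slide as a block, beside 3185 of the 35230 tested probes.

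By role, the list of other immediate-early genes (such as Btg2, Per1, Sik1 and Sgk1) had 30 of 32 members with a lower mean in KE than in KO, with a median of -0.18, and 9 with an unadjusted p under 0.05, all lower. Of all tested probes, 58.5% were lower in KE than in KO, and 21.1% had such a p in either direction. With the slide as a block 23 of the 32 were lower, with a median of -0.05. In KE versus exercised WT 27 of 32 were lower with a median of -0.12 and 3 passed that threshold, all lower. Of all tested probes, 53.1% were lower in that comparison, and 6.66% passed the threshold in either direction. Relatives and corepressors of the EGR and NR4A factors were lower in KE than in exercised WT for 5 of 5, with a median of -0.29. Partners of AP-1 such as Jun and Atf3 had a median of -0.22 in KE versus exercised WT with 6 of 8 lower, and MAPK feedback genes such as the Dusp and Spry families a median of -0.16 with 10 of 10 lower. Neuronal effectors and late-response genes had a median of -0.09 with 10 of 15 lower. Upstream transducers and factors, which are present before stimulation, had a median of 0.01 with 11 of 27 lower. In KE versus KO the members lower in KE were 5 of 5 (median -0.20) for the EGR and NR4A relatives, 5 of 8 (-0.21) for AP-1 partners, 8 of 10 (-0.11) for MAPK feedback genes, 8 of 15 (-0.06) for neuronal effectors and 19 of 27 (-0.03) for upstream transducers, of which 2 lower and 5 higher had an unadjusted p under 0.05. A block for slide left 12 of these 27 transducers lower, with a median of 0.02. It left 4 of 8 AP-1 partners lower (median -0.03), 8 of 10 MAPK feedback genes (-0.07) and 9 of 15 neuronal effectors (-0.02). With the same block the EGR and NR4A relatives were lower for 5 of 5 (-0.19). The medians of all tested probes were -0.04 in KE versus KO, or -0.02 with the slide as a block, and -0.01 in KE versus exercised WT.

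The screening criterion was met by 4 related genes in at least 1 comparison. Cdkn1a, a cell cycle inhibitor induced by p53 and by stress, was 9.08, 9.18 and 8.97 in WT, 9.39, 10.24 and 9.23 in KO, 9.34, 9.38 and 8.83 in the exercised WT arrays, and 8.76, 8.68 and 8.27 in KE. All KE arrays lay below all other arrays, and KE differed from KO by -1.05 ± 0.25 (limma adjusted p = 0.135) and the interaction was -1.15 ± 0.36 (limma adjusted p = 0.554). Within slide 2, against KO replicate 3, the KE minus KO difference was -0.66. The study itself picked Cdkn1a from these arrays for follow-up by qRT-PCR, so its listing here is not independent. The paper counts Cdkn1a among the genes that its qRT-PCR did not verify.

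Sgk1, a kinase induced by serum and glucocorticoids, read 12.65, 12.55 and 12.13 in WT, 13.19, 13.95 and 12.54 in KO, 13.41, 13.47 and 12.39 in the exercised WT arrays, and 11.88, 12.66 and 12.58 in KE. It was high in KO replicates 1 and 2 and in exercised WT replicates 1 and 2. It was not high in WT replicate 1, which was the highest array for 5 of the 10 immediate-early genes. Its interaction was -1.49 ± 0.55 (limma adjusted p = 0.578). Arl4d, a small GTPase, had high arrays in the same mice, with 9.36 and 10.06 in KO replicates 1 and 2 and 9.56 and 9.48 in exercised WT replicates 1 and 2, and an interaction of -1.18 ± 0.43 (limma adjusted p = 0.578). Spry4, a feedback inhibitor of receptor tyrosine kinase signalling, was not well above background on any WT array and was so on 3 of 3 exercised WT arrays. Its mean was 5.15 in the exercised WT arrays and 2.05 in WT, which bounds exercised WT at at least 1.86-fold above WT (limma adjusted p = 0.093), the WT arrays being set to the lowest signal called above background on each. KO replicates 1 and 2 on slide 1 read 2.55 and 1.88 and KO replicate 3 on slide 2 read 5.74. Of the KO arrays, 1 was well above background. A slide block would rest on signals not above background, so no blocked difference is given.

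**Figure D4:**
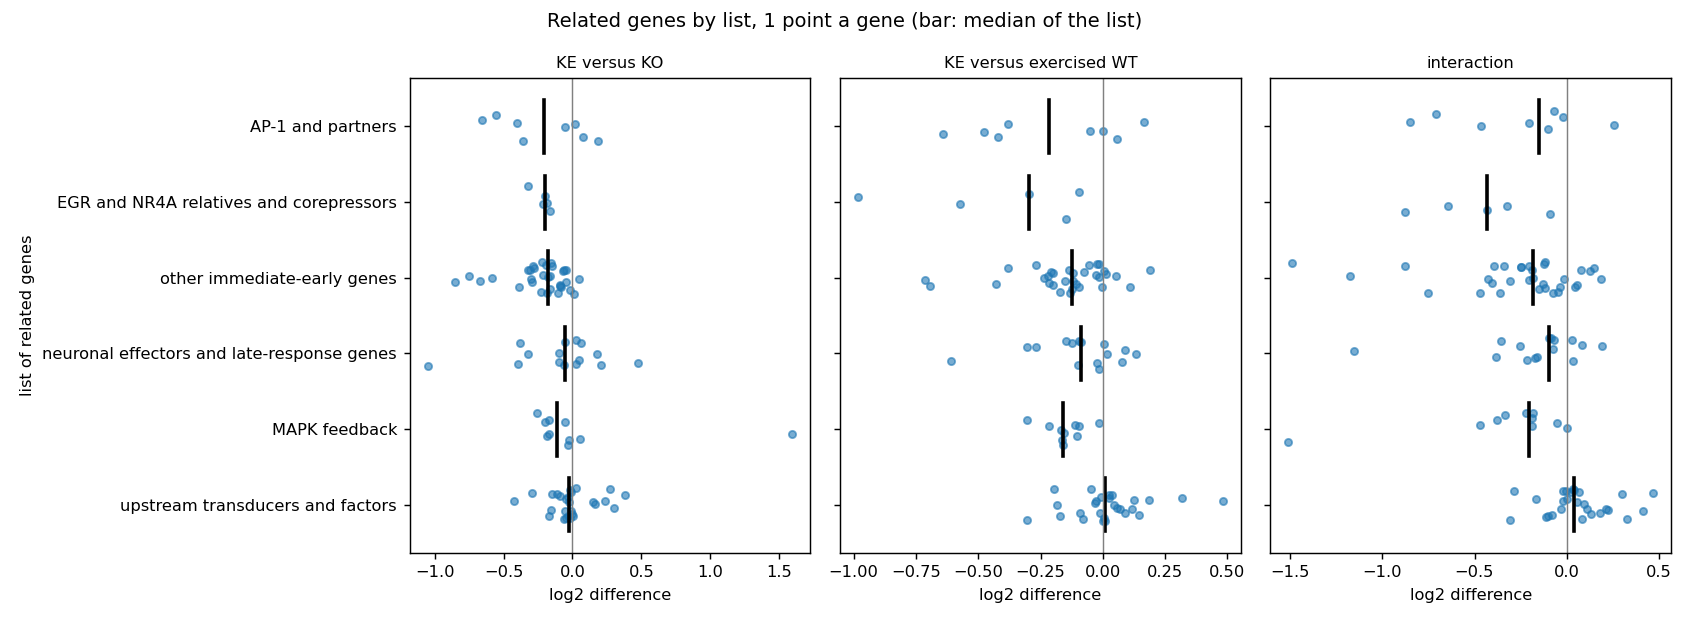
Log2 difference (horizontal axis) of each related gene with a tested probe, 1 point a gene, by list (vertical axis), in 3 comparisons, with a bar at the median of the list. Points of other immediate-early genes lie mostly left of 0 in KE versus KO (30 of 32, or 23 with the slide as a block) and KE versus exercised WT (27 of 32), and upstream transducers have medians of -0.03 and 0.01. Of all tested probes, 58.5% and 53.1% were lower in these 2 comparisons without a slide term.

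Over the 12 arrays, 128 of 18256 genes (0.701%) had a Pearson coefficient above 0.8 with the mean profile of the 10 genes, among them 6 of the 97 related genes. These 6, named after their values were seen, were Tiparp (0.85), Gadd45g (0.85), Sik1 (0.84), Per1 (0.81), Btg2 (0.81) and Jun (0.81). The 8 genes with the highest coefficients were 2410016O06Rik (0.93), Larp4 (0.92), Mfap3 (0.92), Ccnd2 (0.92), Gc (0.92), Gm2172 (0.91), Kti12 (0.91) and Tnfrsf25 (0.91), of which none was in a related list. After the means of each group on each slide were taken off, which leaves 7 degrees of freedom, the first 8 were D230040J21Rik (0.998), Med12l (0.99), 9430013L14Rik (0.97), Heca (0.97), AI451458 (0.97), 2810417H13Rik (0.96), Ctdspl (0.96) and Heatr3 (0.96). By that measure 398 genes (2.18%) were above 0.8, among them 7 related genes, and of the 6 named above only Per1 (0.91) and Jun (0.91) were, with Tiparp at 0.77, Sik1 at 0.74, Gadd45g at 0.72 and Btg2 at 0.65. The 2 sets of 8 shared no gene, and Heatr3 had a coefficient of -0.24 over the 12 arrays, so the leading names depended on how group and slide were handled. The profile left after group and slide means were taken off varied most between the WT arrays.

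Markers of other cells and of tissue stress were read on the same arrays. The summed signal of 6 heat shock genes, all tested and with Hspa8 the brightest probe, was 16.86, 16.72 and 16.67 in WT, 16.90, 17.03 and 16.61 in KO, 16.84, 16.66 and 16.66 in the exercised WT arrays, and 16.54, 16.47 and 16.43 in KE on the log2 scale. It was lowest in the KE arrays. The mean of the centred log2 signals of the list had a coefficient of 0.64 with the mean profile of the immediate-early genes, and of 0.25 after the means of each group on each slide were taken off, with Dnajb1 at 0.86 and 0.80 and Hspb1 at 0.17 and -0.21. The same 2 coefficients were -0.49 and -0.62 for cortex and hippocampus (9 of 11 tested), -0.47 and -0.44 for thalamus (7 of 7), -0.38 and -0.53 for blood (6 of 7, Hba-a1 the brightest probe), -0.26 and -0.50 for choroid plexus (7 of 7) and -0.21 and -0.17 for oligodendrocytes (6 of 6). They were -0.06 and -0.43 for striatum (8 of 8), 0.08 and -0.49 for microglia (6 of 6), 0.21 and -0.29 for astrocytes (6 of 6), 0.23 and -0.27 for endothelium (6 of 6) and -0.14 and 0.24 for the hypothalamic markers (17 of 17). The sign thus turned for microglia, astrocytes, endothelium and the hypothalamic markers. Single hypothalamic markers went both ways, so the value of that list hides them. Npy was at 0.73 and 0.77, Pomc at 0.63 and 0.64 and Nkx2-1 at 0.59 and 0.59. Crh was at -0.58 and -0.60 and Pmch at -0.56 and -0.21. The cortical sum moved by only 0.14 between its lowest and highest array, whereas the blood sum ran from 16.95 in KO replicate 1 to 17.93 in KO replicate 2. The part of any of these in the immediate-early gene values was not tested.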

How the data were processed

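Total RNA from the hypothalamus of 12 mice was labelled with Cy3 and hybridized to Agilent SurePrint G3 mouse arrays, and sample titles gave each array's group and replicate number. A second label numbers some of the same mice differently. For each array the deposited scanner output came from Agilent Feature Extraction 10.7.1.1 and holds, per spot, a background-subtracted intensity and flags. In a further deposited table, log2 values had been quantile-normalized over all arrays by the authors in GeneSpring, and this table was used for every value here, with detection taken from the scanner flags. The authors' comparison tables hold fold changes and p-values, and those, with their 24 columns of values per sample, were not used.

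Probes entered the tests (35230 of 56605) if every one of the 3 arrays in some group had them well above background. A model of the 4 groups was fitted over all 12 arrays (limma 3.58.1, R 4.3.3), with Benjamini-Hochberg adjustment over all tested probes. The screening criterion of the methods was a change of 2-fold or more either way with an unadjusted p no higher than 0.05 (here from limma). The p-values measure the spread between arrays of the same group, pooled over the groups in the fit. Without a slide term, that spread includes the distance of KO replicate 3 on slide 2 from KO replicates 1 and 2 on slide 1. The probe of a gene was its brightest tested probe. The text names all 10 genes, related genes that met the criterion (up to 4 rises and 4 falls per comparison), and the 8 genes most like the mean profile. The genes, the lists of related genes and markers and the tests were chosen with earlier results of these data known. The fit was tested on simulated data. Sequences are from RefSeq (GRCm38.p6), and positions of probes were read from the array annotation (mm9), whose gene models were not used here. Figures were drawn with Python 3.11.15 and matplotlib 3.10.9. The alternatives were quantile normalization from the scanner signal, scaling by the 75th percentile, normexp with an offset of 50, leaving out the detection filter, detection on all 12 arrays, the methods' t-test, fitting only the 2 groups compared, a block for slide or for replicate number, arrays of 1 slide, the mean of all probes of a gene and leaving out each array. A fit with both blocks and one without replicate 1 of every group were added after seeing the data.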

Additional observations from a re-analysis of the deposited data

Results flagged for a closer look

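The difference between the swimming effects in knockout and wild-type mice passed the screening criterion for 3 related genes, in a test of the interaction term itself. The interaction was -1.49 for Sgk1, -1.18 for Arl4d and -1.15 for Cdkn1a on the log2 scale, all negative. None held after adjustment over all tested probes, with limma adjusted p of 0.578, 0.578 and 0.554. With the slide as a block the values were -1.83, -1.50 and -1.35. Without replicate 1 of every group they were -1.21, -0.93 and -1.29, and 2 related genes met the criterion. Without KO replicate 2, the highest KO array for all 3 genes, 1 did. With 3 arrays a group, no test for outlying arrays was made.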

How the results depend on the processing

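Of 1170 gene-level differences of the 10 immediate-early genes under the alternatives, 40 moved by more than the spread between replicates, 26 of them under a slide block. The median over the genes moved beyond that spread for exercised WT versus WT only, to 0.336 with the slide block and 0.244 with the replicate block and slide block. Replicate numbers are only names here, and 5 of 12 arrays correlated best with another array of their own number. Every group holds 1 array of each number, so a replicate block alone leaves each difference unchanged by construction and says nothing about stability. The medians with it were 0.084 for KO versus WT, -0.009 for exercised WT versus WT, -0.230 for KE versus KO, -0.159 for KE versus exercised WT and -0.236 for the interaction, and no count of probes that met the criterion moved by over 1.5 times.

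The number of tested probes that met the criterion was 79 for KO versus WT, 770 for exercised WT versus WT, 426 for KE versus KO, 89 for KE versus exercised WT and 209 for the interaction. In the same order it was 487, 1524, 1015, 808 and 955 with no detection filter, 9, 441, 231, 13 and 47 with the filter on all 12 arrays, and 2, 260, 124, 4 and 12 after normexp. Without replicate 1 of every group it was 161 for KO versus WT, 512 for exercised WT versus WT, 105 for KE versus KO and 324 for the interaction. The methods' t-test gave 24 probes (KO versus WT), 57 (KE versus KO) and 51 for KE versus exercised WT, and after Benjamini-Hochberg adjustment 1635 probes for exercised WT versus WT and 0 in the other comparisons had a p under 0.05. A fit on the 2 groups compared gave 51 for KO versus WT and 146 for KE versus KO. The slide block gave 277 for exercised WT versus WT and 169 for KE versus KO, the arrays of slide 2 gave 162 for KE versus KO, and the replicate block and slide block gave 363 and 197. Leaving out 1 array gave 67 to 207 for KO versus WT, 714 to 894 for exercised WT versus WT, 124 to 1187 for KE versus KO (without KO replicates 2 and 3), 85 to 137 for KE versus exercised WT and 195 to 316 for the interaction.

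For related genes the count was 0, 1, 1, 0 and 3 in that order. In KO versus WT it was 1 with the slide block and on slide 1, and 0 to 1 on leaving out an array. The methods' t-test left 1 related gene after adjustment, Spry4 for exercised WT versus WT, whose signal was low on slide 1 and high on slide 2. After adjustment limma left 0 related genes in each comparison with all arrays, and without KO replicate 3 it left 8 for exercised WT versus WT and 21 for KE versus KO. In exercised WT versus WT the count was 0 after normexp and with the filter on all 12 arrays, 3 with the slide block, 2 with both blocks and 2 with the mean of all probes of a gene. In KE versus KO it was 2 with 75th percentile scaling, 0 after normexp, with the slide block, on slide 2 and with both blocks, and 0 to 4 on leaving out an array (0 without KO replicate 2, 4 without KO replicate 3). In KE versus exercised WT it was 1 with the mean of all probes, 1 without replicate 1 of every group, and 0 to 1 on leaving out an array. In the interaction it was 5 with both blocks and 1 to 4 on leaving out an array. The cause of these moves was not tested.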
